A study of Mus musculus with 3 samples.

Results

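WNT signalling was read in the primary germ layers of the gastrulating mouse embryo through 10 genes, chosen by name: the ligand genes Wnt3, Wnt3a and Wnt5a, the R-spondin gene Rspo3, the antagonist genes Dkk1 and Sfrp1, the nuclear effector gene Lef1, and the target genes Axin2, Sp5 and Sp8. They were measured by 21 of the 45037 probe sets of the array, a probe set being a group of short oligonucleotides against the same transcript, and make up 10 of the 18193 genes named there. The samples were endoderm, mesoderm and epiblast of ICR embryos, an outbred mouse stock, at E7.5, each hybridised to 1 Affymetrix array from 100 ng of total RNA. Per the study's methods, only the embryonic region was used, the layers were parted with glass needles after enzyme treatment, and the epiblast sample held the neuroectoderm together with the primitive streak. The sources used here do not give how many embryos went into each array.

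WNT proteins are secreted signals that bind Frizzled receptors with the co-receptors LRP5 and LRP6. Receptor binding stops the destruction of beta-catenin, which then enters the nucleus and activates target genes with DNA-binding partners of the TCF/LEF family. R-spondins strengthen the signal by keeping receptors at the cell surface, while DKK proteins block the co-receptors and SFRP proteins bind the ligands. In the gastrulating mouse, WNT signals at the posterior side are required for the primitive streak and for mesoderm, and antagonists made by the anterior endoderm protect the future head from them.

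With 1 array per layer, no difference had a replicate check and no p-value could be given. A gene was called where it differed by at least 2-fold after values under a floor were raised to that floor, the median of all values (an intensity of 80.6). Where the lower value was under the floor, the fold is a bound and is given as "at least". The available error was how far several probe sets of a gene disagree. Over 5536 genes their pooled SD on the log2 scale was 0.40 for the difference of endoderm from epiblast, 0.27 for that of mesoderm from epiblast and 0.39 for that of endoderm from mesoderm. The median intensity was 79.9 in the endoderm, 79.9 in the mesoderm and 82.2 in the epiblast. Intensities of different probe sets depend on the probes, so levels were compared between layers and not between genes. In bulk tissue, fewer cells of a type and less RNA per cell cannot be told apart.

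The layers were checked against their markers. Sox17 and Foxa2 summed to 7417 in the endoderm, 164 in the mesoderm and 239 in the epiblast. Foxf1 and Kdr summed to 358 in the endoderm, 3398 in the mesoderm and 444 in the epiblast, and both were at least 2-fold above the other layers in mesoderm. Sox2 was 72.4 in the endoderm, 130 in the mesoderm and 3032 in the epiblast, whereas Pax6, also a marker of that layer, was brightest in endoderm, at 181 in the endoderm, 92.4 in the mesoderm and 121 in the epiblast, and no pair was 2-fold apart. The sum of this marker pair was 254 in the endoderm, 222 in the mesoderm and 3154 in the epiblast. The endoderm sample also carried visceral endoderm, the outer epithelium that gut endoderm replaces. All 5 of its markers (Apob, Afp, Ttr, Amn and Cubn) were highest there, with a sum of 35092 in the endoderm, 326 in the mesoderm and 277 in the epiblast. All 4 blood markers were under the floor in every layer. Of the 6 trophoblast markers, 5 were above the floor in each layer, and Elf5 was under it in every layer. The sum of the 6 was 2851 in the endoderm, 2099 in the mesoderm and 3488 in the epiblast. Most of it came from Cdx2 (1283 in the endoderm, 932 in the mesoderm and 1817 in the epiblast) and Eomes (773, 470 and 886). Cdx2 also stands in the pathway list below as a target gene, so the sum cannot show trophoblast on its own. None of the 6 was 2-fold above both other layers in any layer. Of 3 decidua or stroma markers, 1 was above the floor in the endoderm, 2 in the mesoderm and 2 in the epiblast. Their sum was 244 in the endoderm, 307 in the mesoderm and 296 in the epiblast.

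Of the 10 WNT genes, 9 were above the floor in at least 1 layer, as were 12785 of all genes. Of these, 7 were called in at least 1 of the 3 pairs of layers, beside 18.8% of all genes above the floor. In endoderm the antagonist gene Dkk1 exceeded each of the other layers by 2-fold or more (8.03% of all genes did). In mesoderm Wnt5a, Rspo3 and Lef1 did so (1.30% of all genes), and in epiblast Wnt3a and Sp8 (0.907% of all genes). Sfrp1, Axin2 and Sp5 had no such layer. The 10 genes were picked with results of these data known, so these shares are a description.

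**Figure D1:**
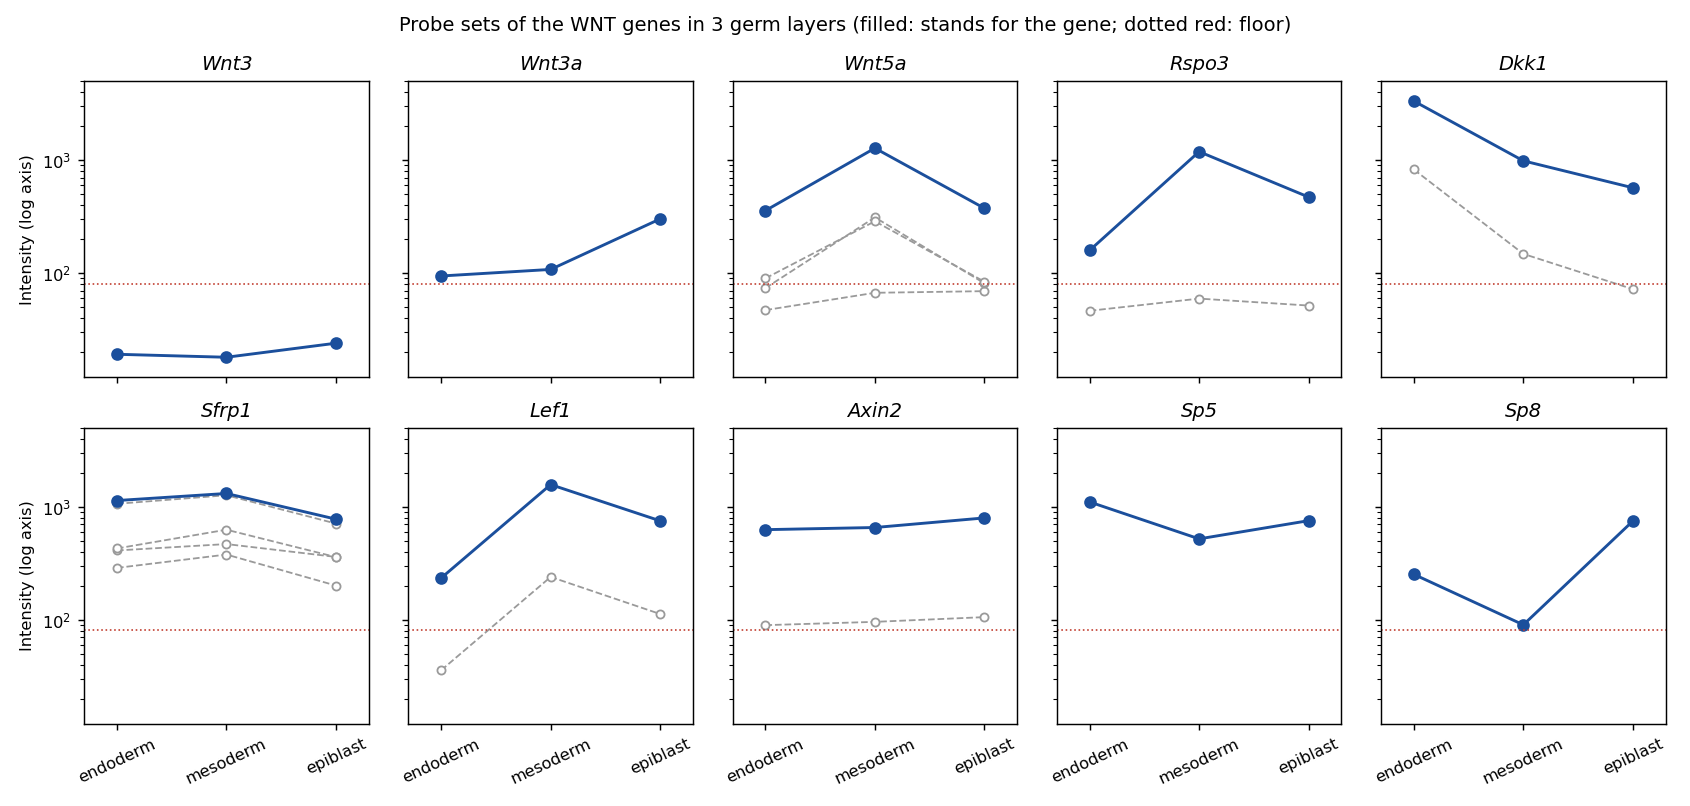
Intensity (log axis) of all 21 probe sets of the 10 WNT genes in endoderm, mesoderm and epiblast, with 1 array per layer. The filled symbols are the probe set that stands for the gene, the open ones are its other probe sets, and the dotted line is the floor of 80.6. Dkk1 is highest in endoderm, Wnt5a, Rspo3 and Lef1 in mesoderm, and Wnt3a and Sp8 in epiblast, while Wnt3 lies under the floor throughout.

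The ligand genes were split between epiblast and mesoderm. Wnt3a, which encodes a beta-catenin-stabilising ligand needed for the paraxial mesoderm of the trunk and tail, had an intensity of 94.4 in the endoderm, 108 in the mesoderm and 302 in the epiblast. It was therefore 3.20-fold lower in endoderm than in epiblast and 2.80-fold lower in mesoderm than in epiblast, and endoderm and mesoderm lay within 1.14-fold of each other. The endoderm and mesoderm values lie close to the floor. Only 1 probe set reported Wnt3a, and with the floor moved to the 75th percentile of all values (286) its log2 difference from epiblast was -0.08 in both layers.

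Wnt5a encodes a ligand that mostly acts without beta-catenin, through receptors such as ROR2, and drives the elongation of the body axis. Its intensity was 357 in the endoderm, 1274 in the mesoderm and 375 in the epiblast. Mesoderm stood apart, 3.40-fold higher than epiblast, and endoderm was 3.57-fold lower than mesoderm, while endoderm and epiblast differed by 1.05-fold. A further pair of probe sets was also brightest in mesoderm, with 89.9 in the endoderm, 288 in the mesoderm and 84.0 in the epiblast for the brighter, and 73.7 in the endoderm, 311 in the mesoderm and 81.4 in the epiblast for the dimmer. Over these 3 probe sets the log2 difference of mesoderm from epiblast ran between 1.77 and 1.94 (SD 0.10). A probe set entered this SD only if it was above the floor in at least 1 layer. The further pair was well above the floor only in mesoderm, and its epiblast values lay barely above it, so the small SD is no firm check. With the mean of all probe sets of Wnt5a in place of the brightest, the difference was 1.36. The remaining probe set of Wnt5a was under the floor in every layer, at 47.1 in the endoderm, 67.0 in the mesoderm and 69.3 in the epiblast.

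Wnt3, the ligand gene required for the primitive streak to form, was not measured above the floor. Its single probe set gave 19.2 in the endoderm, 18.0 in the mesoderm and 24.0 in the epiblast. The suffix of its name (x_at) marks a set with probes that can also match other transcripts. At this signal no level and no fold could be given for Wnt3 in any layer, which is not the same as absence.

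Rspo3 encodes a secreted protein that amplifies WNT signals through the LGR receptors. Its intensity was 159 in the endoderm, 1187 in the mesoderm and 471 in the epiblast. The layers followed each other in clear steps, since mesoderm was 2.52-fold higher than epiblast and endoderm was 2.96-fold lower than epiblast and 7.47-fold lower than mesoderm. The second probe set of Rspo3 was under the floor in every layer (46.5 in the endoderm, 59.6 in the mesoderm and 51.7 in the epiblast) and cannot check the order. With the mean of both probe sets in place of the brighter, the log2 difference from epiblast was -0.86 in endoderm and 0.77 in mesoderm, both short of 2-fold.

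Dkk1, a secreted blocker of LRP5 and LRP6 that the head needs in order to form, was 3326 in the endoderm, 985 in the mesoderm and 569 in the epiblast. Endoderm exceeded epiblast by 5.85-fold and mesoderm by 3.38-fold. Mesoderm was 1.73-fold higher than epiblast, short of the limit. The second probe set of Dkk1 ran the same way, at 825 in the endoderm, 148 in the mesoderm and 72.2 in the epiblast. By that set endoderm exceeded epiblast by at least 10.2-fold and mesoderm by 5.58-fold, so the sets differed in size (SD 0.68 on the log2 scale against epiblast) but not in direction. The visceral endoderm markers given above were high in the same sample, and their part in the level of Dkk1 was not tested.

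Sfrp1, whose protein binds WNT ligands outside the cell, had no pair of layers 2-fold apart. Its intensity was 1132 in the endoderm, 1307 in the mesoderm and 775 in the epiblast, with mesoderm 1.69-fold higher than epiblast. Mesoderm was highest and epiblast lowest by all 5 of its probe sets. The log2 difference of mesoderm from epiblast ran between 0.38 and 0.91 over them (SD 0.21), and that of endoderm from epiblast between 0.19 and 0.58 (SD 0.18). Endoderm and mesoderm differed by 1.15-fold by the probe set that stands for the gene, within the spread between probe sets over all genes. Of the antagonist pair, Dkk1 was called and Sfrp1 was not.

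Lef1, a DNA-binding partner of beta-catenin whose own gene is often a WNT target, had an intensity of 234 in the endoderm, 1566 in the mesoderm and 749 in the epiblast. Mesoderm was 2.09-fold higher than epiblast, just past the limit, and endoderm was 3.20-fold lower than epiblast and 6.70-fold lower than mesoderm. The second probe set of Lef1 was 35.7 in the endoderm, 239 in the mesoderm and 112 in the epiblast. On the values as deposited, both sets gave nearly the same differences, with 1.06 and 1.09 on the log2 scale for mesoderm against epiblast and an SD of 0.02, and -1.68 and -1.65 for endoderm against epiblast. Lef1 and Rspo3 had the same order of layers.

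Axin2, Sp5 and Sp8 are read as targets of the pathway, yet they had 3 different patterns. Axin2 encodes a scaffold of the complex that destroys beta-catenin and is a widely used readout of WNT signals, through which it feeds back on the pathway. It was nearly level, at 625 in the endoderm, 653 in the mesoderm and 794 in the epiblast. The largest fold between layers was 1.27, and the second probe set (89.5 in the endoderm, 95.7 in the mesoderm and 105 in the epiblast) had the same order with a largest fold of 1.18.

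Sp5, a zinc finger factor of the Sp1 family induced by WNT signals, was 1100 in the endoderm, 518 in the mesoderm and 751 in the epiblast. It was 2.12-fold higher in endoderm than in mesoderm. Epiblast lay between them, with endoderm 1.46-fold higher than epiblast and mesoderm 1.45-fold lower. The call of endoderm against mesoderm depended on the scaling of the arrays, since the log2 difference of 1.08 was 0.84 after quantile normalization and 0.96 after cyclic loess, both under 2-fold. Sp5 had 1 probe set.

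Sp8, a related zinc finger factor that acts with Sp5 in the posterior mouse embryo and is also made in anterior neural tissue, differed in all 3 pairs. Its intensity was 252 in the endoderm, 90.1 in the mesoderm and 745 in the epiblast. Mesoderm was 8.27-fold lower than epiblast, endoderm was 2.96-fold lower than epiblast, and endoderm was 2.80-fold higher than mesoderm. Sp8 and Sp5 were thus both lowest in mesoderm, while their highest layers were not the same. Sp8 also had 1 probe set, and its value in mesoderm lies near the floor.

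The promoters of Sp5, Dkk1, Lef1 and Axin2 are shown, of the last as a window without a match. TCF/LEF proteins recognise DNA with the core CTTTGA, and these genes of the pathway had different layer patterns. Whether they answer to WNT signals in these layers was not tested. Of the 10 genes, 7 were found in the RefSeq promoter table (GRCm38.p6), with 12 annotated starts, each window running from 250 bases before the start to 50 after it. The letters CTTTGA, searched on both strands (TCAAAG on the other), were in 4 of these 12 windows and in 16.0% of all 32851 windows of the same length. The longer CTTTGAT, which contains the shorter motif, was in 1 of the 12 and in 3.73% of all. Sequences are written 5′ to 3′ along the strand of the gene, with each match in capitals.
Sp5, chr2:70474673-70474972, plus strand: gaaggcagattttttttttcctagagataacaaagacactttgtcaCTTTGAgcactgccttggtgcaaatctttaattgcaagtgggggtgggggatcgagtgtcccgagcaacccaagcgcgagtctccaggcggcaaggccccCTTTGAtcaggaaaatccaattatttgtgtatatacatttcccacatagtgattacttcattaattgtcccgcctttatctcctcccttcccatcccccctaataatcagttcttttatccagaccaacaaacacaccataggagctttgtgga
Dkk1, chr19:30549447-30549746, minus strand: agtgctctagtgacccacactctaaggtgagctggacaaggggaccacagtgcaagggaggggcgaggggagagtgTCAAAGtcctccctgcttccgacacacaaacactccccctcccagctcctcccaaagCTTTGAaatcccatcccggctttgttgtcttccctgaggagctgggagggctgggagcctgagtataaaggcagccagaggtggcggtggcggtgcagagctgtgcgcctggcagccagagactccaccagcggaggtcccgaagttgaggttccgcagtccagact
Lef1 from its internal start, chr3:131156044-131156343, plus strand: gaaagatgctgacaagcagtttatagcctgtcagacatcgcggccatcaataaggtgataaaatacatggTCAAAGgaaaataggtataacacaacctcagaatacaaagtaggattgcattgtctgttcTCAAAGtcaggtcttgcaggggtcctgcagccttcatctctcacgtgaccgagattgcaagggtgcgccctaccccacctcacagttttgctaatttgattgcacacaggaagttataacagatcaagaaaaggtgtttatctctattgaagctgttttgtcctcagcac
Axin2, chr11:108920099-108920398, plus strand: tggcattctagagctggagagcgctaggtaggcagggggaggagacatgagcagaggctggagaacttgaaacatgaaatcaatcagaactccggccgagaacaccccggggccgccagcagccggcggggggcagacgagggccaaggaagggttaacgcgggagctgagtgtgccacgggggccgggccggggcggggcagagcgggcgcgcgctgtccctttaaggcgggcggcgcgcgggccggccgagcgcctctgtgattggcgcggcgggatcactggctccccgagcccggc

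The matches began 204 and 104 bases before the start in Sp5, the nearer one being the CTTTGAT, 174 and 117 bases before it in Dkk1, and 180 and 120 bases before it in Lef1. The Lef1 matches lie at the fourth of its annotated starts, and the other 3 windows of Lef1 held no match. In Sp8 the match stood 50 bases before the second of its 3 starts. The windows of Axin2, Wnt3 and Wnt3a did not hold these letters. Binding was not measured here, so a match is a feature of the sequence. Of the genes with a match, Sp5 and Dkk1 were highest in endoderm, Lef1 in mesoderm and Sp8 in epiblast.

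For endoderm against epiblast, which sets the outer layer beside the layer that holds the streak, 1 of the 9 WNT genes above the floor was higher in endoderm (Dkk1), beside 11.3% of all genes, and 4 were lower (Wnt3a, Rspo3, Lef1 and Sp8), beside 3.17% of all genes. The median log2 difference of the 9 genes was -0.34, and that of all genes above the floor was 0.04. After quantile normalization 64.5% of the called genes of the whole array were higher in endoderm, in place of 78.1%, and the median of all genes was -0.09, while the calls of the WNT genes did not change.

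The pair of mesoderm against epiblast sets the mesoderm beside a sample that held the neuroectoderm and the streak itself. In it 3 WNT genes were higher in mesoderm (Wnt5a, Rspo3 and Lef1), beside 2.90% of all genes, and 2 were lower (Wnt3a and Sp8), beside 2.45%. The median of the 9 genes was 0.75 and that of all genes was -0.01. Dkk1 and Sfrp1 were also brighter in mesoderm, by 1.73-fold and 1.69-fold, and were called only with a limit of 1.5-fold. For endoderm against mesoderm, 3 were higher in endoderm (Dkk1, Sp5 and Sp8), beside 10.1% of all genes, and 3 were lower (Wnt5a, Rspo3 and Lef1), beside 3.19%. The median of the 9 genes was -0.19 and that of all genes was 0.06, and quantile normalization changed the share of higher genes among all called from 76.1% to 65.6%. The 3 comparisons share arrays, so they are not independent of each other.

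**Figure D2:**
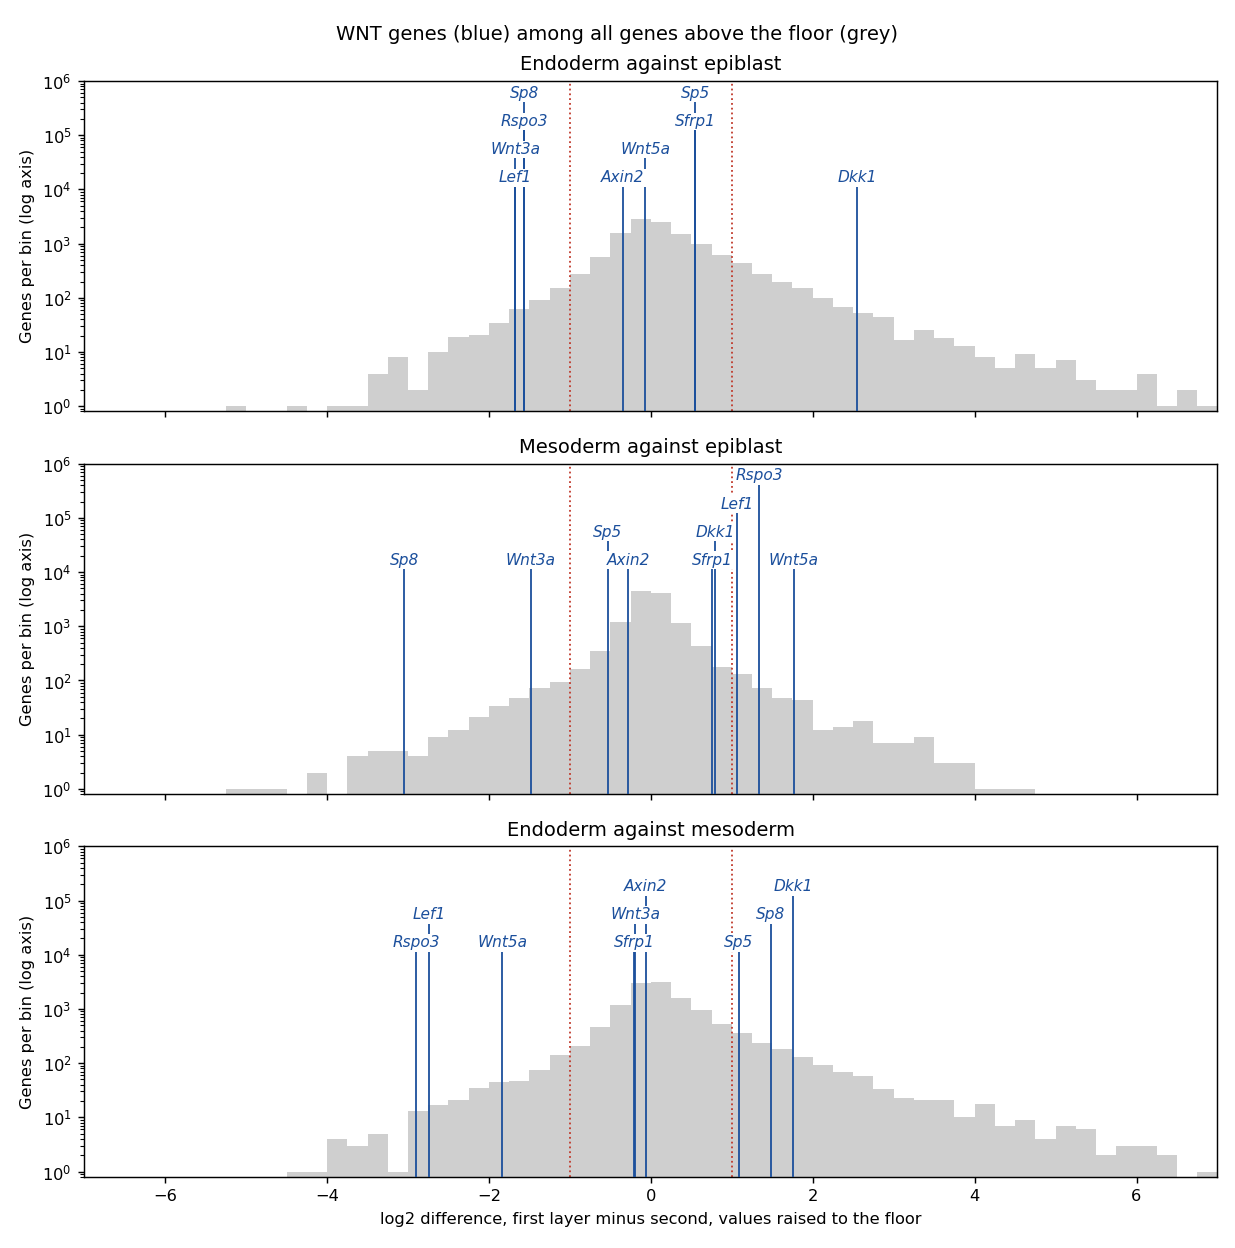
Number of genes (log axis, grey bars) by log2 difference between layers for the 12785 genes above the floor, with the 9 WNT genes above the floor as blue lines whose height only makes room for the names, and the 2-fold limits as dotted lines. Endoderm minus epiblast is on top, mesoderm minus epiblast in the middle and endoderm minus mesoderm at the bottom, and Rspo3 and Lef1 lie past the limit in every panel, below 0 in the panels for endoderm and above 0 for mesoderm.

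The rest of the pathway was read from a list of 87 other genes, of which 84 had a named probe set and 68 were above the floor. Of the 68, 27 (39.7%) were called in at least 1 pair, beside the 18.8% of all genes. For endoderm against epiblast 9 were higher (11.3% of all genes were) and 11 lower (3.17% of all genes), with a median of -0.08. For mesoderm against epiblast 7 were higher (2.90% of all genes) and 7 lower (2.45%), with a median of -0.04. For endoderm against mesoderm 7 were higher, a share close to the 10.1% of all genes, and 10 lower (3.19% of all genes), with a median of -0.12.

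Among 11 further ligand genes above the floor, 3 (27.3%) were called in at least 1 pair, beside the 18.8% of all genes. Wnt2, a ligand of the allantois and the early heart region, was 28.8 in the endoderm, 488 in the mesoderm and 80.4 in the epiblast. It was at least 6.06-fold higher in mesoderm than in epiblast, joining Wnt5a in that layer. Wnt8a, a ligand of the posterior epiblast and streak, was 98.5 in the endoderm, 91.1 in the mesoderm and 289 in the epiblast, and thus 2.94-fold lower in endoderm and 3.18-fold lower in mesoderm than in epiblast, which is close to the pattern of Wnt3a. Wnt5b was 254 in the endoderm, 325 in the mesoderm and 580 in the epiblast, with endoderm 2.28-fold lower than epiblast.

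Both genes for the release of WNT proteins were called in at least 1 pair, beside the 18.8% of all genes. Porcn, which attaches the lipid that WNT proteins need, was 538 in the endoderm, 88.7 in the mesoderm and 162 in the epiblast, so that endoderm exceeded epiblast by 3.32-fold and mesoderm by 6.06-fold. Wls, the carrier that brings lipid-bearing WNT proteins to the surface, was 1365 in the endoderm, 1587 in the mesoderm and 558 in the epiblast, or 2.44-fold higher in endoderm and 2.84-fold higher in mesoderm than in epiblast. Of 4 R-spondin and LGR genes above the floor, 1 was called in at least 1 pair, beside the 18.8% of all genes. This was Lgr5, a receptor for R-spondins. It was 280 in the endoderm, 131 in the mesoderm and 50.5 in the epiblast, so its highest layer was the lowest one of Rspo3.

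Of 14 receptor genes above the floor 7 were called in at least 1 pair, beside the 18.8% of all genes. The Frizzled gene Fzd5 was 1403 in the endoderm, 135 in the mesoderm and 522 in the epiblast, and was 10.4-fold higher in endoderm than in mesoderm and 2.69-fold higher in endoderm than in epiblast. Fzd6 had the same order, with 551 in the endoderm, 84.8 in the mesoderm and 218 in the epiblast. Fzd4 was 346 in the endoderm, 484 in the mesoderm and 175 in the epiblast, with mesoderm 2.77-fold above epiblast. Fzd3 was 250 in the endoderm, 677 in the mesoderm and 584 in the epiblast, and was lower in endoderm, by 2.34-fold against epiblast and 2.71-fold against mesoderm. The Frizzled genes therefore did not share a direction. With the mean of a gene's probe sets in place of the brightest, Fzd3, Fzd4 and Fzd6 were not called in the pairs given here, Fzd5 was called only between endoderm and mesoderm, and Lgr5, Wnt5b and Tcf7l2 also lost their calls.

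Among 8 further secreted antagonist genes above the floor 2 were called in at least 1 pair, beside the 18.8% of all genes. Cer1, an inhibitor of Nodal and BMP signals from anterior endoderm, stands in this role by the list, and its action on WNT was not tested. It was 4344 in the endoderm, 1606 in the mesoderm and 50.4 in the epiblast, with the same order as Dkk1. It was at least 53.9-fold higher in endoderm and at least 19.9-fold higher in mesoderm than in epiblast. Sfrp2, a relative of Sfrp1, was 141 in the endoderm, 399 in the mesoderm and 899 in the epiblast, and was lower than in epiblast by 6.38-fold in endoderm and by 2.26-fold in mesoderm. The visceral endoderm markers were high in the same sample as Porcn, Fzd5, Fzd6, Lgr5 and Cer1, and their part in these levels was not tested. The SFRP genes differed, as Sfrp1 was lowest in epiblast and Sfrp2 highest there. Of 4 membrane inhibitor genes above the floor, 1 was called in at least 1 pair, beside the 18.8% of all genes. This was Apcdd1, at 315 in the endoderm, 1256 in the mesoderm and 297 in the epiblast, with mesoderm 4.23-fold above epiblast.

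Of 8 genes for beta-catenin, its destruction complex and the Dishevelled proteins above the floor, 1 (12.5%) was called in at least 1 pair, near the 18.8% of all genes. Ctnnb1, which encodes beta-catenin and is singled out here for its values, was 8351 in the endoderm, 8328 in the mesoderm and 8365 in the epiblast. Dvl1, a Dishevelled gene that relays the signal from the receptor, was the called gene, at 1085 in the endoderm, 462 in the mesoderm and 604 in the epiblast. Among the 5 nuclear effector genes Tcf7l2 was called (20.0%, near the 18.8% of all genes). It was 785 in the endoderm, 582 in the mesoderm and 372 in the epiblast, the reverse of the endoderm and epiblast order of Lef1. After quantile normalization Dvl1 and Tcf7l2 lost their calls, as did Wls for endoderm against epiblast and Lgr5 for endoderm against mesoderm.

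Of the 12 further target genes above the floor, 9 were called in at least 1 pair, beside the 18.8% of all genes. The target genes had more calls than the other roles with over 2 genes. For endoderm against epiblast 1 of the 12 was higher, beside 11.3% of all genes, and 5 were lower, beside 3.17%, with a median of -0.87 against 0.04 for all genes. Nkx1-2, a factor of the caudal epiblast, was 165 in the endoderm, 349 in the mesoderm and 2413 in the epiblast, or 14.7-fold lower in endoderm and 6.91-fold lower in mesoderm than in epiblast. Mixl1, a factor of the streak, was 77.8 in the endoderm, 234 in the mesoderm and 554 in the epiblast, and Cdx1, a regulator of posterior identity, was 57.4 in the endoderm, 155 in the mesoderm and 435 in the epiblast. Tbx6, a factor of paraxial mesoderm, was 111 in the endoderm, 721 in the mesoderm and 564 in the epiblast, and was 5.08-fold lower in endoderm than in epiblast and 6.50-fold lower than in mesoderm. These genes are also read as streak and posterior markers, so a target list and a tissue list cannot be told apart here.

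**Figure D3:**
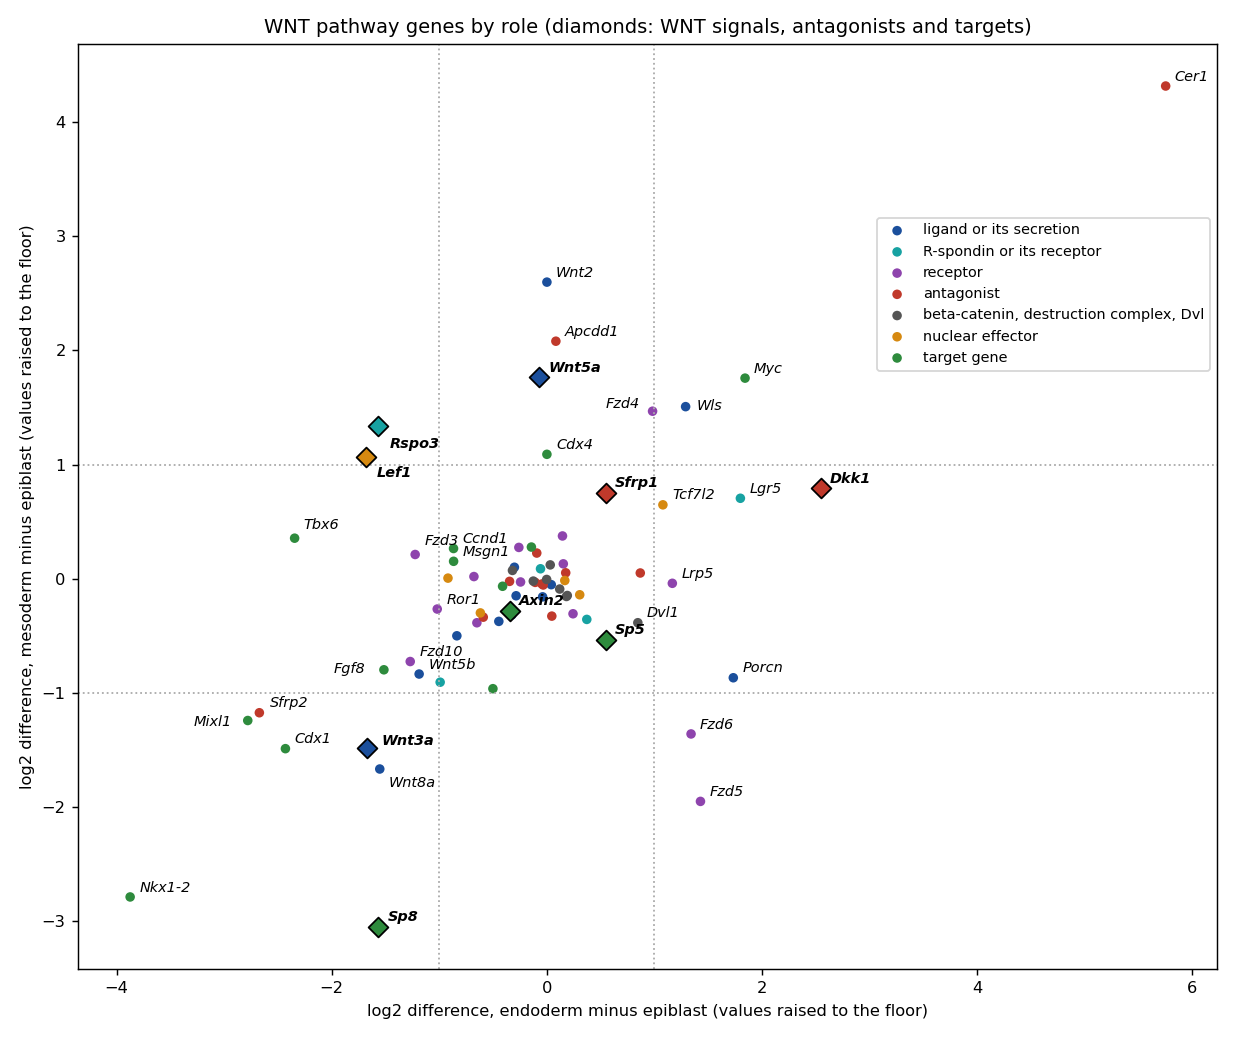
Log2 difference of endoderm from epiblast (horizontal axis) against that of mesoderm from epiblast (vertical axis) for the 68 listed pathway genes (circles) and the 9 WNT genes (diamonds) above the floor, coloured by role, with 1 array per layer and dotted lines at 2-fold. Both axes share the epiblast array. Names are given for the 9 WNT genes and for the 27 called genes, with Cer1 and Dkk1 at the right, Wnt2, Apcdd1 and Wnt5a at the top centre, and Nkx1-2, Sp8, Wnt8a and Wnt3a at the lower left.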

How the data were processed

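Gene expression was measured in 3 samples, endoderm, mesoderm and epiblast of E7.5 ICR mouse embryos, with 1 Affymetrix Mouse Genome array each. Per the study's methods scanned arrays were processed in the manufacturer's package, and the authors used Robust Multiarray Average (RMA) for background correction and normalization and the affy package for expression values. The deposited table holds linear intensities from 1 upward, whereas RMA usually yields log2 values. The sources used here do not give the rescaling, so dim differences depend on an unknown step.

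Of 45037 probe sets, 34945 had 1 gene symbol in the platform annotation, 932 had several and 9160 had none listed. Looking up Entrez identifiers in RefSeq (34741 probe sets found) altered 0 symbols, and only probe sets with a single symbol were used. Each gene was represented by its probe set of highest mean log2. Intensities were raised to the floor (the 50th percentile), converted to log2 and subtracted. The methods name Significance Analysis of Microarrays, which needs replicates, so a limit of 2-fold replaced a test. The number of arrays limits the precision. Python 3.11.15, numpy 2.4.6, pandas 2.3.3, matplotlib 3.10.9 and, for cyclic loess, limma 3.58.1 in R 4.3.3 were used. The calculation of the calls was run on simulated data. The planted folds there lay well past or well short of the limit, in genes well above the floor. Such a run checks the calculation and not how firm the calls are.

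The 10 genes and the pathway and marker lists were chosen with earlier results of these data known. The genes named are all 10 and, for each role of the pathway list, up to 4 called genes with the largest range over the layers. As alternatives, another floor, no floor, other fold limits, other ways to choose a probe set, 3 normalizations and a pseudocount of 32 were tried.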

Additional observations from a re-analysis of the deposited data

How the results depend on the processing

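The calls of the 10 genes were recomputed under 11 alternatives. For endoderm against epiblast 5 genes were called, and 3 after raising the floor to the 75th percentile (without Rspo3 and Wnt3a) or a limit of 3-fold (without Rspo3 and Sp8). For mesoderm against epiblast 5 were called, and 2 with a limit of 3-fold (Wnt5a and Sp8). For endoderm against mesoderm 6 were called, and between 4 and 6 under the alternatives. Of the further pathway genes, 68 of them above the floor, 20, 14 and 17 were called for these pairs. With the floor at the 75th percentile these counts were 10, 6 and 7, and with a limit of 3-fold they were 9, 7 and 6. With a limit of 1.5-fold the counts against epiblast were 32 for endoderm and 22 for mesoderm. Of all genes above the floor in use, 14.5%, 5.35% and 13.3% were called for these pairs. These shares were 13.1%, 3.75% and 12% with the higher floor, and 6.19%, 2.13% and 6.26% with the 3-fold limit. With the 1.5-fold limit they were 28.5%, 11.3% and 25.9%. The higher floor and the limits alter which genes can be called by construction. Of 270 recomputed log2 differences of the 10 genes, 256 moved by less than the spread between probe sets and 14 by more, and 0 of the called ones changed sign. Many of the 270 could not move by construction. The settings without a floor gave the same differences as each other, and removing the floor leaves values above it unaltered. The choice of probe set leaves a gene with a single probe set unaltered. These counts are therefore no measure of how firm the differences are. Among the 14, the difference of Sp8 between endoderm and mesoderm was 0 with the higher floor, since both values lie under it. No array could be left out, and no paired analysis was possible because each layer had 1 array. The background of the probes was not in the values used here, so signals near the floor, as for Wnt3a outside the epiblast and Sp8 in mesoderm, have no firm level.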

Other observations

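For each of the 7 called WNT genes, the other genes with the most similar pattern were found by the root mean square distance between log2 values, raised to the floor and centred on their own mean over the 3 layers, among 2399 genes that varied by 2-fold or more. The closest to Wnt5a were Nexn (distance 0.03, with 53.0 in the endoderm, 297 in the mesoderm and 83.6 in the epiblast) and Prrx2 (0.03, with 58.0, 281 and 63.3). The endoderm value of Nexn and the endoderm and epiblast values of Prrx2 were under the floor and raised to it. Their distances to Wnt5a therefore depend on the floor. Closest to Rspo3 were Pdgfrb, a receptor gene of mesenchymal cells (0.04), with 85.7 in the endoderm, 623 in the mesoderm and 238 in the epiblast, and Car3 (0.08), with 275 in the endoderm, 1811 in the mesoderm and 800 in the epiblast. Car3 was also the closest to Lef1 (0.06), followed by Adcy3 (0.11). For Dkk1 they were Mpp1 (0.04), with 1061 in the endoderm, 326 in the mesoderm and 194 in the epiblast, and Fam107b (0.04). For Wnt3a they were St8sia3 (0.02), with 78.2 in the endoderm, 91.2 in the mesoderm and 265 in the epiblast, and Psors1c2 (0.03). The endoderm values of St8sia3 and Psors1c2 were also under the floor. For Sp5 they were Ociad2 (0.01) and Fmc1 (0.02).

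The called WNT genes differed in how many other genes lay close to them. Large differences between layers were rarer among all genes than small ones, so a gene with a larger range has fewer genes near it. The log2 range over the layers was 1.08 for Sp5 and 3.05 for Sp8. These counts therefore do not measure how common an order of layers is. Within a distance of 0.1 there were 44 genes for Sp5, 14 for Wnt5a, 11 for Wnt3a, 10 for Dkk1, 4 for Rspo3 and 1 for Lef1. For Sp8 there were 0, and the closest gene, Nup210, was at 0.17, with 314 in the endoderm, 90.5 in the mesoderm and 711 in the epiblast, followed by Zcchc18 (0.20). A pattern over 3 arrays has few degrees of freedom, so these are neighbours by value in these samples.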
